A study of Mus musculus with 3 samples.

Results

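The dual-specificity MAP kinase phosphatases were taken as 10 genes by symbol (Dusp1, Dusp2, Dusp3, Dusp4, Dusp5, Dusp6, Dusp7, Dusp8, Dusp10 and Dusp16), and all 10 were found among the 18287 genes of the deposited tables. RNA came from commercial primary endothelium of the mouse aorta, the inner lining of that vessel. Of the 3 cultures, 1 was left untreated (control) and 1 received glucose oxidase (5 mU/mL, 30 min), which generates hydrogen peroxide as it oxidizes glucose. The last received glucose oxidase and, for 24 h, 0.2 mM ethyl-2-hydroxybenzylamine (Et2HOBA), a small molecule that scavenges reactive lipid aldehydes. The labels do not state which agent was given first, the time from glucose oxidase to harvest, or how many animals the cells came from. A culture with Et2HOBA but no glucose oxidase was not analysed here. A single polyadenylated RNA library stands for each group.

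MAP kinases are switched on when an upstream kinase phosphorylates a threonine and a tyrosine in their activation loop. Dual-specificity phosphatases remove both phosphates, and so end or limit signalling by ERK, JNK and p38. Many of these genes are themselves transcribed in response to the kinases they switch off, which makes them negative feedback regulators. By role, Dusp1, Dusp2, Dusp4 and Dusp5 encode inducible nuclear enzymes, Dusp6 and Dusp7 cytoplasmic enzymes selective for ERK, and Dusp8, Dusp10 and Dusp16 enzymes that prefer JNK and p38. Dusp3 encodes a small atypical enzyme without the kinase-binding domain of the others. In endothelium Dusp1 is known as a brake on p38 and JNK signalling during inflammatory activation.

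Upstream sequence from RefSeq (GRCm38.p6, the same assembly as the gene positions of the deposited table) was matched by symbol for 9 of the 10 genes; Dusp4 is named only. The window was 250 to 51 bases upstream of the transcription start. The stretches below are those of Dusp5, 1 of the 3 genes with the widest differences, of Dusp1 and Dusp8, which hold cAMP response elements, and of Dusp6, whose level differed little between libraries. Capitals mark motif matches on either strand, and all are written 5′ to 3′ on the gene's own strand.

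Dusp5, chr19:53528895-53529094, plus strand: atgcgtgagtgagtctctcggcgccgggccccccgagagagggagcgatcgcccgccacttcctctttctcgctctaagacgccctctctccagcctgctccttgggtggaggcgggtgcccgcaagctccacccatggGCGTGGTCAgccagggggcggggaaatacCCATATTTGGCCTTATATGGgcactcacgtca
Dusp1, chr17:26508523-26508722, minus strand: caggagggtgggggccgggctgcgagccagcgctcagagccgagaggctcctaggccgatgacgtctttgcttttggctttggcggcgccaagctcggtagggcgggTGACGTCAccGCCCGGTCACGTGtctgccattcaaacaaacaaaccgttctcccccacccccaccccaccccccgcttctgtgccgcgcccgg
Dusp8, chr7:142095335-142095534, minus strand: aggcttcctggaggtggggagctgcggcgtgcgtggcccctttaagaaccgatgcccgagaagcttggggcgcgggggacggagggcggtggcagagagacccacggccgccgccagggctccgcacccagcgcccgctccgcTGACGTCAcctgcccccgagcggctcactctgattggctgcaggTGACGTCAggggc
Dusp6, chr10:99262981-99263180, plus strand: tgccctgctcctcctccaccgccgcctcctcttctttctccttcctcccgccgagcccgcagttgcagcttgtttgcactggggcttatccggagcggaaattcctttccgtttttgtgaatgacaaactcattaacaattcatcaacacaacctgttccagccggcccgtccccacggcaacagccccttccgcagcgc

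The motifs searched were the cAMP response element TGACGTCA, the AP-1 site TGANTCA, the C/EBP-ATF response element TGATGNAA, the antioxidant response element core TGACNNNGC, the E-box CACGTG and, by name, the CArG box bound by serum response factor. The motif set was chosen with the members' values known. Dusp5 held 2 adjoining CArG boxes, 82 to 73 and 72 to 63 bases upstream of the start, a motif found in 1.16% of 32851 RefSeq promoter windows of the same length, and 1 antioxidant response element core, found in 7.66%. Dusp8 held 2 cAMP response elements, 107 to 100 and 63 to 56 bases upstream, and Dusp1 held 1, 143 to 136 bases upstream. That element occurs in 0.828% of all windows. Dusp1 also held an antioxidant response element core, on the reverse strand like that of Dusp5, which overlaps its E-box, so these are not separate stretches, and Dusp2 held 1 E-box (4.34% of all windows). The windows of Dusp3, Dusp6, Dusp7, Dusp10 and Dusp16 held none of these letters, and no member window held the AP-1 site (5.57% of all windows) or the C/EBP-ATF element (2.72%). All 9 windows were rich in G and C, from 58% in Dusp6 to 77.5% in Dusp7, against a median of 51.5% over all windows (quartiles 44.5% and 60%). They held 13 to 25 CpG dinucleotides, against a median of 4. The motif shares over all windows were not matched for this, and the cAMP response element and the E-box each contain a CpG. A match describes the letters only and does not show binding.

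Since no group had a second library, there is no replicate check and no test of a condition. Fold differences are ratios of normalized counts, that is, of reads divided by a library size factor. Each is given with an exact 95% Clopper-Pearson interval, which holds counting error alone and sets one library against another. Read counts after glucose oxidase were worked back as whole reads from deposited log2 differences. Total reads over all listed genes ranged from 35005089 to 40212212. In bulk RNA of this kind, fewer cells of a type and less RNA per cell cannot be told apart. All 12 endothelial marker genes were listed. Below, 3 read counts in a row stand for control, then glucose oxidase, then both agents. Counts of 37351, 26919 and 29562 were found for the junction gene Pecam1, of 55360, 45034 and 63665 for Cdh5 and of 61640, 27584 and 24227 for the receptor gene Kdr. Tek, with 6786, 2877 and 1688 reads, and Vwf, with 46607, 21567 and 12545, were lower still relative to control with both agents. Summed over the 12 genes, the normalized count was 336846, 229634 and 219759 in that order, and 3 and 4 of the 12 were lower than control by 1 log2 unit or more. Of markers of other cells, the leukocyte genes Ptprc, Adgre1 and Cd3e and the fibroblast genes Col1a2, Dcn and Lum were not listed, and the smooth muscle gene Acta2 had 8 to 18 reads. The fibroblast list (3 of 6 listed) went from 133 to 1416 and 2738 normalized counts, nearly all Pdgfra. The leukocyte list (2 of 6 listed) went from 8141 to 17758 and 26848, nearly all Cd68. The smooth muscle list (5 of 6 listed) lay between 3717 and 4859, nearly all Smtn. Besides Acta2, its other genes also had few reads: Tagln 9, 9 and 4, Des 8, 9 and 9, and Myh11 19, 35 and 73. Col3a1, with 2, 12 and 0 reads, was the only listed marker at 0 in any library. The part of these shifts in the values below was not tested.

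Glucose oxidase was first set against control, which addresses the response to the oxidant. Dusp4, Dusp5, Dusp10 and Dusp2 were each between 2.72-fold and 3.71-fold higher after glucose oxidase, and the other 6 genes lay between 0.853 and 1.19 of the control level. On the scale of the log2 ratio of normalized count plus 10, 4 of 10 genes were higher by 1 unit or more, against 4.07% of all listed genes and 4.53% of 13285 protein-coding genes. None was lower by as much, against 8.60% of all genes and 633 of the 13285 protein-coding genes. A downward count of 0 in so few genes lies near the background. The median log2 ratio of the 10 was 0.23, and -0.01 over all listed genes. By the log2 values in the authors' deposited table, Dusp4 and Dusp5 passed and Dusp2 and Dusp10 did not. There was a gap in the list on the common scale: no member had a log2 ratio between 0.25 (Dusp16) and 1.37 (Dusp2).

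Next, the library given both agents was set against control. Dusp10 was 8.61-fold higher, Dusp5 6.01-fold and Dusp4 5.49-fold, a group apart from the next genes, Dusp2 at 2.42-fold, Dusp8 at 2.00-fold and Dusp16 at 1.96-fold. Again 4 of 10 passed 1 log2 unit upward, against 6.66% of all listed genes and 7.33% of protein-coding genes. None passed downward, against 8.04% of all listed genes and 1236 of 13285 protein-coding genes, which again lies near the background. The median of the 10 was 0.97, against 0.00 over all listed genes. Dusp2, at 1.01, lay just inside the limit and Dusp8, at 0.97, and Dusp16, at 0.96, just outside it. With total-count scaling Dusp2 lay under the limit and the count was 3. The comparisons against control share the control library, so their values are given side by side and their likeness is not a result.

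The treated libraries were then set against each other. They differ by the scavenger in the presence of the oxidant. They may also differ in the time from oxidant to harvest, and these cannot be told apart here. Dusp10 and Dusp5 were 2.32-fold and 2.21-fold higher with Et2HOBA than without, and the other 8 genes ranged from 0.746 for Dusp2 to 1.96 for Dusp8. Thus 2 of 10 passed 1 log2 unit upward, against 6.39% of all listed genes and 0.971% of protein-coding genes. Of the 1169 listed genes behind the first share, 129 were protein-coding. The glucose oxidase library had 464 listed genes at 0 reads, against 131 in control and 218 with both agents. Of the 1572 listed genes lower by 1 log2 unit or more after glucose oxidase than in control, 633 were protein-coding. Why so many other genes were low in that single library was not tested. None passed downward, against 2.15% of all genes and 312 of 13285 protein-coding genes, near the background for so few genes. With a pseudocount of 50 in place of 10 the upward count was 1. The median of the 10 was 0.67, against 0.00 over all listed genes and -0.02 over protein-coding genes. The ratio was above 1 for 8 of the 10 genes and under 1 for Dusp2 and Dusp6.

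**Figure D1:**
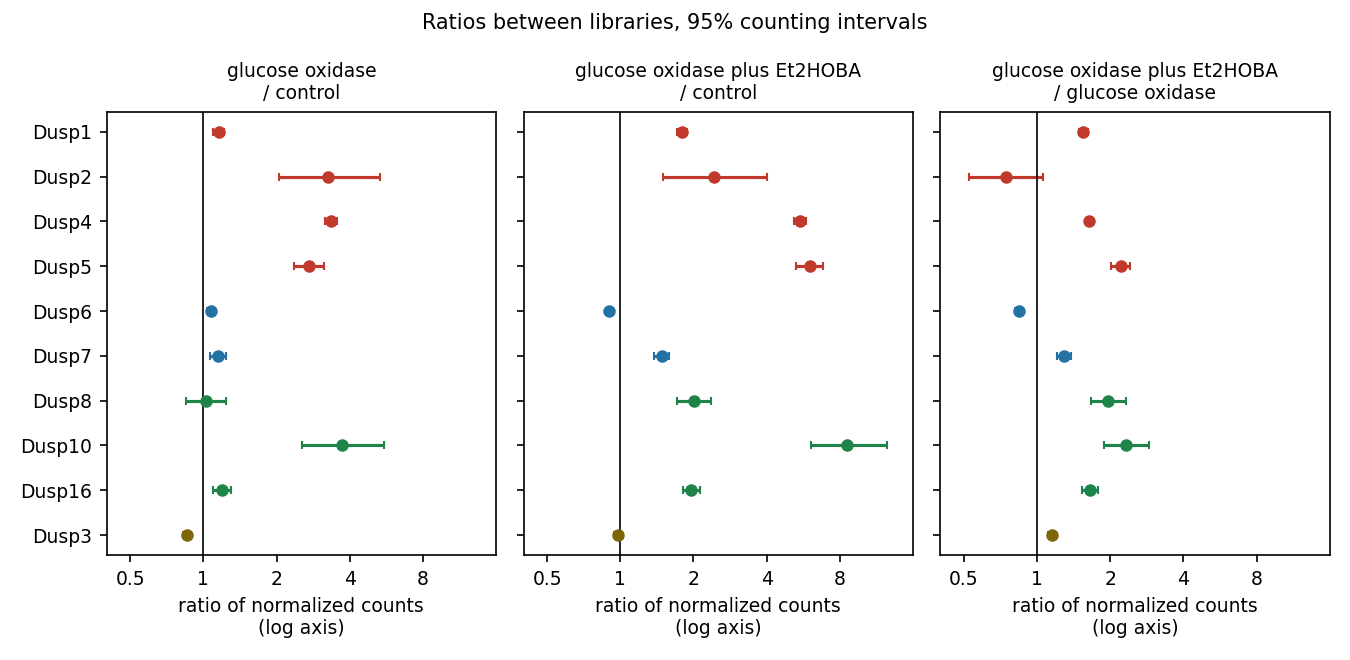
Ratio of normalized counts between libraries for each of the 10 genes (log axis, 1 library per group), with bars for the 95% counting interval and a line at equal levels; red marks nuclear inducible, blue cytoplasmic ERK-selective, green JNK and p38 and olive the atypical gene. Dusp4, Dusp5 and Dusp10 lie right of the line in all 3 panels, from 1.64 to 8.61, while Dusp6 and Dusp3 stay between 0.840 and 1.15.

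**Figure D2:**
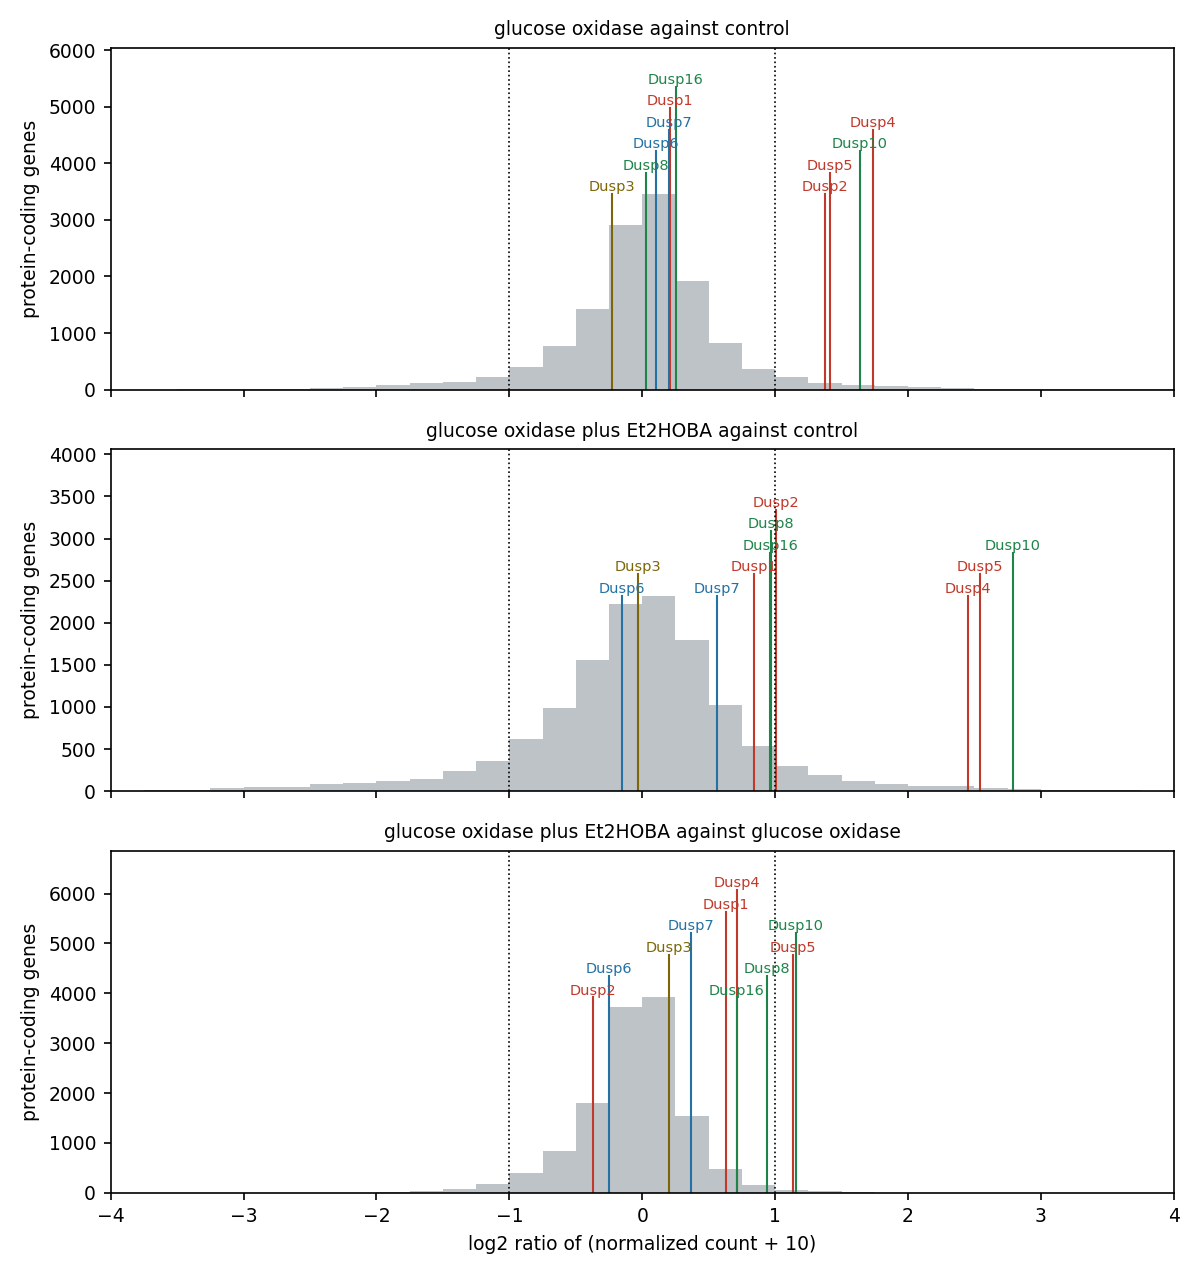
Number of protein-coding genes (y axis) by log2 ratio of normalized count plus 10 (x axis, bins of 0.25, shown from -4 to 4) in each comparison, with a coloured line for each of the 10 genes and dotted lines at the limit of 1 in either direction. Dusp4, Dusp5 and Dusp10 stand between 2.45 and 2.79 in the middle panel.

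Of the inducible nuclear phosphatases, Dusp4 (ENSMUSG00000031530.6, chromosome 8, 34807297 to 34819894), whose enzyme acts on ERK and JNK, had 1655 control reads, 5184 with the oxidant alone and 9144 with both agents. It was the abundant gene with the widest range, higher in each treated library than in control. Glucose oxidase against control gave 3.35-fold (95% interval 3.17 to 3.54). Glucose oxidase plus Et2HOBA gave 5.49-fold against control (5.21 to 5.79) and 1.64-fold against glucose oxidase (1.58 to 1.70). In the authors' deposited tables, which are separate for each comparison, Dusp4 had a log2 difference of 1.63 for the first comparison and 2.40 for the second.

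Dusp5 (ENSMUSG00000034765.6, chromosome 19, 53529109 to 53542431), a nuclear phosphatase specific for ERK, had 273, 695 and 1651 reads. The order of the libraries was that of Dusp4, at a lower level. Its ratio to control was 2.72 after glucose oxidase (2.36 to 3.14) and 6.01 with Et2HOBA (5.28 to 6.86), and the ratio between the treated libraries was 2.21 (2.02 to 2.42). Dusp5 shares 20.5% of the 50-base stretches of its longest transcript with AC137853.2, an antisense gene that overlaps its first exon by 547 bases and reaches into the upstream window shown above. That gene had 8, 10 and 12 reads, few beside those of Dusp5. The strand setting used for counting is not given in the sources used here. Thus the low count of AC137853.2 does not show how reads in the overlap were assigned.

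Dusp1 (ENSMUSG00000024190.7, chromosome 17, 26505590 to 26562128), which prefers p38 and JNK, differed from Dusp4 and Dusp5 in that most of its difference lay between the treated libraries. It had 3026, 3272 and 5459 reads, so that control and glucose oxidase were close and the library with Et2HOBA was high. The ratio was 1.16 for glucose oxidase against control (1.10 to 1.21), 1.79 with Et2HOBA against control (1.71 to 1.87) and 1.55 between the treated libraries (1.48 to 1.62). Its annotated span includes distant alternative first exons, the nearer of which meets the first exon of Ergic1 on the other strand, with 11 exonic bases in common.

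Dusp2 (ENSMUSG00000027368.6, chromosome 2, 127336159 to 127338376), a nuclear phosphatase best known from lymphocytes and myeloid cells, had 25, 76 and 61 reads. It was the member with the fewest reads, low in control and higher in both treated libraries. It was 3.25-fold higher after glucose oxidase (2.04 to 5.33) and 2.42-fold with Et2HOBA (1.499 to 4.03). The ratio between the treated libraries, 0.746, had an interval of 0.524 to 1.059, so no difference was detectable at this depth. In the authors' separate deposited tables the log2 differences of Dusp2 were 0.54 after glucose oxidase and 0.59 with Et2HOBA. The scale compresses low counts, differently in each table, so these values are not compared with each other.

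Of the cytoplasmic ERK phosphatases, Dusp6 differed least between libraries and Dusp7 was somewhat higher with Et2HOBA. Dusp6 (ENSMUSG00000019960.8, chromosome 10, 99263231 to 99267489), the classical feedback phosphatase of ERK, had 7236, 7268 and 6567 reads, all within a narrow range. Its ratio to control was 1.07 after glucose oxidase (1.04 to 1.11) and 0.902 with Et2HOBA (0.872 to 0.933), and 0.840 between the treated libraries (0.812 to 0.868). Dusp7 (ENSMUSG00000053716.9, chromosome 9, 106368632 to 106375724), its close relative, had 1265, 1360 and 1888 reads, highest with Et2HOBA. The ratios were 1.15 (1.06 to 1.24), 1.48 (1.38 to 1.59) and 1.29 (1.20 to 1.38) in the same order of comparisons. Summed, the 2 genes had 8501, 8628 and 8455 reads, a level with Et2HOBA of 0.988 of control (0.959 to 1.02). The summed reads of the 4 nuclear genes were 4979, 9227 and 16315, or 1.98-fold (1.91 to 2.05) and 3.26-fold (3.15 to 3.36) that of control.

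The phosphatases of JNK and p38 were all higher with Et2HOBA than in either other library. Dusp10 (ENSMUSG00000039384.8, chromosome 1, 184013302 to 184075636) had 36, 125 and 312 reads, the widest range of the family in relative terms. It was 3.71-fold higher after glucose oxidase (2.54 to 5.54), 8.61-fold with Et2HOBA (6.09 to 12.5) and 2.32-fold between the treated libraries (1.88 to 2.88). From the opposite strand, 1700056E22Rik, which lies within the span of Dusp10, just upstream of the start of its main transcript, and shares no exonic bases with it, had 12, 29 and 38 reads.

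Dusp16 (ENSMUSG00000030203.17, chromosome 6, 134715468 to 134792625), a cytoplasmic enzyme that shuttles to the nucleus, had 956, 1067 and 1888 reads. Its ratios were 1.19 after glucose oxidase (1.09 to 1.30) and 1.96 with Et2HOBA (1.81 to 2.12), and 1.64 between the treated libraries (1.52 to 1.77). Dusp8 (ENSMUSG00000037887.11, chromosome 7, 142079490 to 142095843) had 229, 219 and 462 reads. Both genes were near control after glucose oxidase alone and about as high as each other, relative to control, with Et2HOBA. For Dusp8 the ratio after glucose oxidase was 1.02 (0.846 to 1.24), which leaves the direction undetermined, and it was 2.00 with Et2HOBA (1.71 to 2.36) and 1.96 between the treated libraries (1.67 to 2.31). Its direction after glucose oxidase turned with the scaling: the log2 ratio of 0.03 was -0.02 with total-count scaling and -0.01 with size factors from protein-coding genes.

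Dusp3 (ENSMUSG00000003518.13, chromosome 11, 101971143 to 101987013), the atypical member, had 6972, 5561 and 6865 reads and was lowest after glucose oxidase. Its ratio to control was 0.853 after glucose oxidase (0.823 to 0.883) and 0.978 with Et2HOBA (0.946 to 1.01), and 1.15 between the treated libraries (1.11 to 1.19). An antisense gene, Gm20659, overlaps it by 604 exonic bases. Of its 50-base stretches 12.1% occur in other annotated genes, so a part of its count depends on how shared reads were assigned. For Dusp8 the share was 0.189%, and for the other 7 genes apart from Dusp5 it was 0.

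Levels of different genes were compared as RPKM, that is, reads scaled to the merged exon length in kilobases and to the library total. The fold differences above use size factors instead, so RPKM is meant for genes within a library and not for 1 gene between libraries. In control the order was Dusp6 at 64.2, Dusp3 at 41.4, Dusp1 at 25.4, Dusp4 at 16.8, Dusp7 at 10.5, Dusp16 at 3.41, Dusp5 at 3.07, Dusp8 at 1.31, Dusp2 at 0.347 and Dusp10 at 0.329. Dusp16 and Dusp5, and Dusp2 and Dusp10, were neighbours that did not differ beyond counting error, at ratios of 1.11 (0.970 to 1.28) and 1.05 (0.607 to 1.81). With Et2HOBA the first place went to Dusp4 at 83.0, 1.59 times (1.54 to 1.64) Dusp6 at 52.1. They were followed by Dusp1 at 41.0, Dusp3 at 36.5, Dusp5 at 16.6, Dusp7 at 13.99, Dusp16 at 6.02, Dusp10 at 2.55, Dusp8 at 2.36 and Dusp2 at 0.757. Of these only Dusp10 and Dusp8 did not differ from each other beyond counting error. After glucose oxidase alone Dusp4 was second, at 54.0, behind Dusp6 at 66.3, and the last 3 genes, Dusp8, Dusp10 and Dusp2, lay between 1.08 and 1.28 with neighbours that did not differ. Thus Dusp4 went from the fourth place to the first over the 3 libraries, with neighbours at each place that differed from it beyond counting error. The merged lengths take in every annotated exon, used in these cells or not, and the intervals leave out any error from this.

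**Figure D3:**
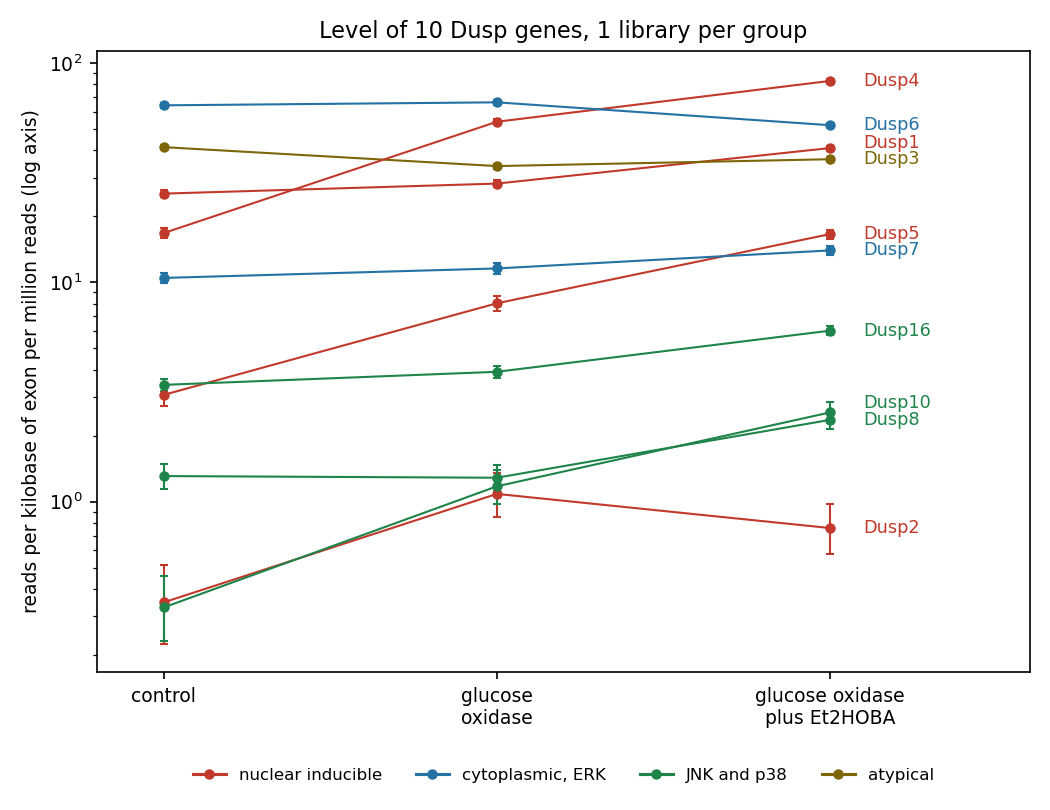
Level of each gene in each library, as RPKM on a log axis, with bars for the exact 95% Poisson interval of the count and lines joining the same gene (the libraries are separate conditions, not a time course). Dusp4 crosses Dusp1 and Dusp3 between control (16.8) and glucose oxidase (54.0) and Dusp6 in the library with Et2HOBA (83.0).

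Shares of the family's own reads do not depend on the library scaling. The 10 genes together had 21673, 24827 and 34297 reads, or 1.22-fold (1.20 to 1.25) and 1.57-fold (1.55 to 1.60) the control level. Dusp4 made up 7.64% of them in control (exact 95% interval 7.29% to 8.0%), 20.9% after glucose oxidase (20.4% to 21.4%) and 26.7% with Et2HOBA (26.2% to 27.1%). Dusp6 went the other way, from 33.4% (32.8% to 34.0%) to 29.3% (28.7% to 29.8%) and 19.1% (18.7% to 19.6%). Dusp3 went from 32.2% to 22.4% and 20.02%. By role, the nuclear inducible genes made up 22.97%, 37.2% and 47.6%, and the cytoplasmic ERK pair 39.2%, 34.8% and 24.7%. The JNK and p38 genes made up 5.63%, 5.68% and 7.76%, so their share was the same within counting error in control and glucose oxidase and higher with Et2HOBA. The family's reads were thus spread differently in the 3 libraries: the cytoplasmic pair held the largest share of any role in control, and the nuclear genes did in both treated libraries. Among the nuclear genes most of that change was Dusp4. Dusp1 made up 13.96%, 13.2% and 15.9%, and Dusp5 1.26%, 2.80% and 4.81%. Dusp9, a further cytoplasmic ERK phosphatase described below, is not counted in the pair.

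**Figure D4:**
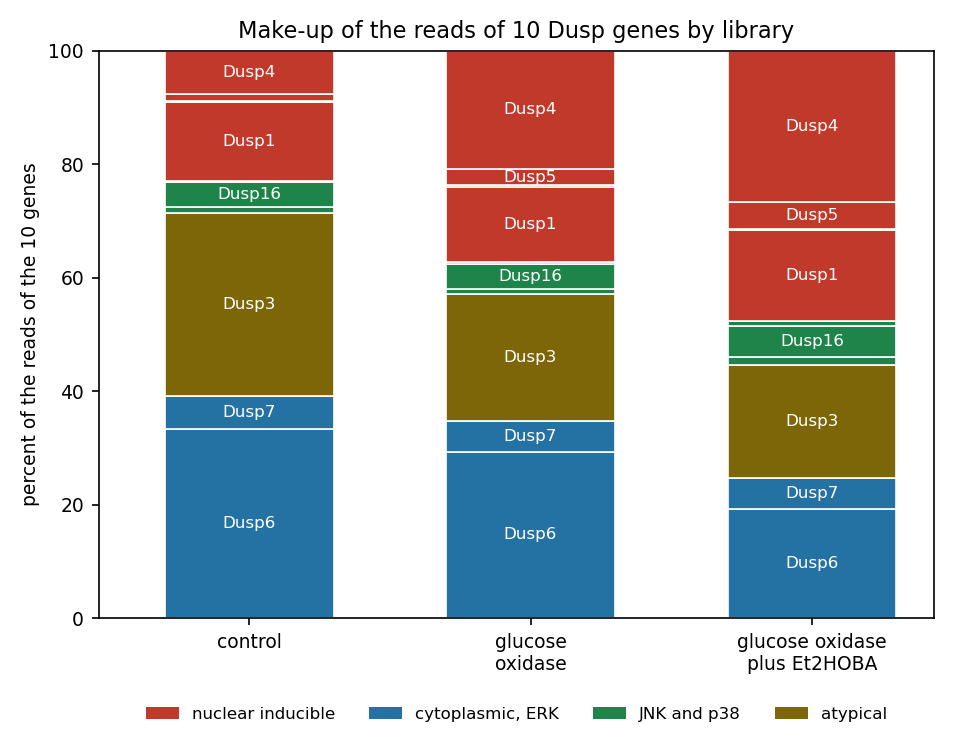
Percent of the reads of the 10 genes that came from each gene (y axis) in each library (1 per group), coloured by role; the thinnest segments carry no label. The nuclear inducible genes grow from 22.97% of the bar in control to 47.6% with Et2HOBA, and Dusp6 shrinks from 33.4% to 19.1%.

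Dusp9, the ERK-selective cytoplasmic relative of Dusp6 and Dusp7 that lies on chromosome X and is not among the 10, had 30, 127 and 265 reads. Its range was wider than theirs, with 4.53-fold the control level (3.02 to 6.98) after glucose oxidase and 8.78-fold (6.004 to 13.3) with Et2HOBA. Of 16 further dual-specificity phosphatases and pseudophosphatases, Dusp9 included, 12 were listed. Dusp9 alone passed 1 log2 unit after glucose oxidase, and Dusp9 and Dusp14 (230, 336 and 569 reads) with Et2HOBA, and none was lower by as much in either. Their medians were 0.19 and 0.24. Of all listed genes 4.07% and 6.66% passed upward and 8.60% and 8.04% downward, shares that also stand beside the next list. Other phosphatases of MAP kinases, 12 genes that include the tyrosine phosphatases Ptpn5, Ptpn7 and Ptprr, had medians of -0.01 and 0.12. Of these Ptpn5 (6, 23 and 27 reads) was higher in both, Ptprr (49, 12 and 47) lower after glucose oxidase and Ptpn7 (21, 8 and 4) lower with Et2HOBA, all 3 at low counts and named after their values were seen.

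The kinases that these phosphatases act on, and those upstream, were set beside the phosphatases. The 12 listed MAP kinases had medians of 0.11 (oxidant alone) and 0.07 (both agents) on the log2 scale. The ERK gene Mapk3 had log2 ratios of -0.21 with the oxidant alone and -0.16 with both agents, and the p38 gene Mapk14 of -0.06 and -0.09. The JNK gene Mapk8 stood at 0.02 and -0.03 (these 3 were named as substrates, after their values were seen). Of the MAP kinases only the atypical Mapk6 (3047, 4953 and 9278 reads) and the low Mapk4 (10, 71 and 89 reads, named after its values were seen) passed the limit, Mapk4 in both comparisons and Mapk6 with Et2HOBA. None of 7 MAP2 kinases passed it, against 4.07% and 6.66% of all listed genes upward and 8.60% and 8.04% downward, so a count of 0 in so few genes lies near the background. Of 20 listed MAP3 kinases, Map3k9 (21, 147 and 279 reads) and Map3k5, which encodes the redox-sensitive kinase ASK1 (530, 1133 and 1765 reads), were higher in both. Map3k13 (545, 310 and 254 reads) was lower with Et2HOBA.

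Downstream of the kinases, 10 effector kinases were listed, and 13 scaffolds and regulators of the cascades. Rps6ka2 (2961, 4512 and 8555 reads), an ERK-activated S6 kinase, passed the limit upward with Et2HOBA, while Rps6ka1 (955, 474 and 437 reads) passed it downward. Rps6ka5 (393, 175 and 194 reads) was lower by 1.03 after glucose oxidase. Among scaffolds and regulators, Taok3 (916, 1428 and 2095 reads) was higher and Arrb1 (12290, 8007 and 4686 reads) lower with Et2HOBA. The lists' medians were 0.03 and -0.31 for effector kinases and -0.01 and 0.15 for scaffolds in the comparisons against control. With Et2HOBA 1 of the 10 effector kinases was higher past the limit and 1 lower, and likewise for the 13 scaffolds. After glucose oxidase 1 effector kinase was lower and no scaffold passed. Of all listed genes 4.07% and 6.66% passed upward and 8.60% and 8.04% downward, so these counts lie near the background.

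Other feedback inhibitors and transcriptional targets of ERK were set beside Dusp6. Of 12 listed feedback inhibitors and modulators of Ras and ERK signalling, 4 passed 1 log2 unit upward after glucose oxidase and 5 with Et2HOBA, none downward, with medians of 0.36 and 0.82. Over all listed genes the shares were 4.07% and 6.66% upward and 8.60% and 8.04% downward, which also stand beside the counts of the lists that follow. Other genes of the list lay near or under control, as Dusp6 did, among them Spry1 (-0.60 and -0.46) and Errfi1 (-0.12 and 0.07), named after their values were seen. Spry2, a membrane-associated inhibitor of receptor signalling, had 275, 650 and 1359 reads and Spred2 964, 1898 and 2862, so both were higher in each treated library. Lgals3, which encodes a galectin that binds Ras, had 834, 2091 and 3175 reads and Rasa2, a GTPase-activating protein for Ras, 369, 630 and 943. Of 21 listed ERK-responsive factors 6 were higher past the limit after glucose oxidase and none lower, and with Et2HOBA 8 were higher and 3 lower. Fosl1 (156, 1122 and 2267 reads) and Etv4 (167, 810 and 1289 reads) had the largest log2 ratios with Et2HOBA, 3.77 and 2.86. Fosl2 (2783, 5339 and 12662 reads) stood at 2.17. Fosb (1312, 973 and 260 reads) was lower by 2.30 with Et2HOBA, as was Fos by 2.10 (2619, 2364 and 605 reads, named after its values were seen). Genes of the AP-1 transcription factor thus stood on both sides of control.

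The 19 stress-response factors had medians of 0.53 and 1.08. Past the limit, 3 were higher after glucose oxidase and 11 with Et2HOBA, none lower. Atf3 (107, 667 and 1630 reads), a stress-induced repressor and activator of the ATF family, had log2 ratios of 2.62 and 3.80, and Ddit3 (472, 2411 and 4339 reads) of 2.42 and 3.16. Atf4, the main transcription factor of the integrated stress response, had 3288, 11946 and 19243 reads. Maff (840, 1137 and 2926 reads) was nearer to control after glucose oxidase, at 0.53, and reached 1.78 with Et2HOBA. Between the treated libraries the medians of the feedback, ERK-responsive and stress-response lists were 0.30, 0.37 and 0.42. With Et2HOBA against control the stress-response list, at 1.08, and the 10 phosphatases, at 0.97, had the highest medians of the 11 lists of signalling genes. After glucose oxidase the median of the phosphatases, 0.23, lay below those of the stress-response list (0.53) and the feedback list (0.36).

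**Figure D5:**
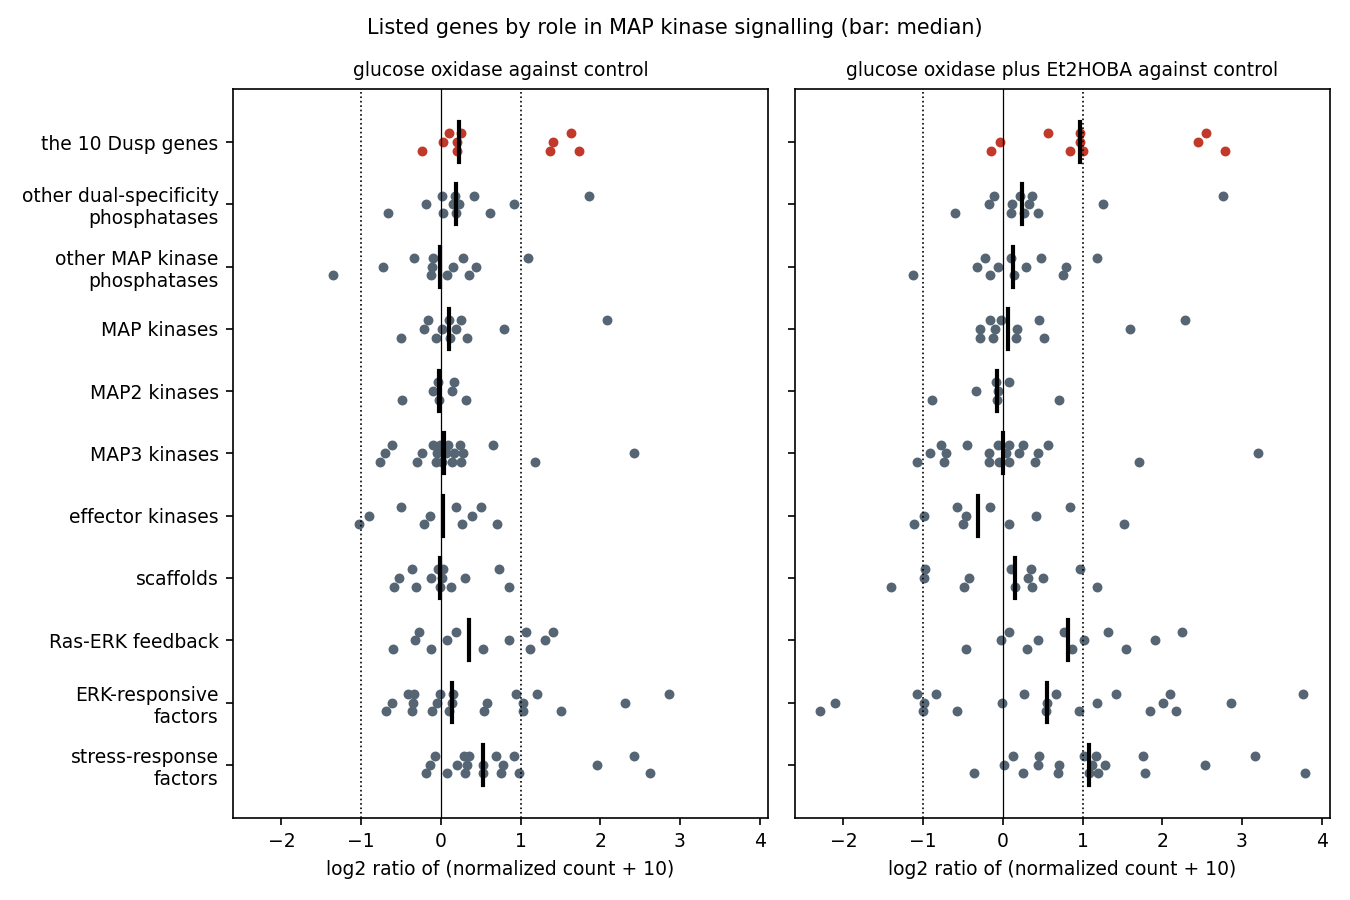
Log2 ratio of normalized count plus 10 (x axis) for each listed gene in the 10 Dusp genes (red) and 10 lists of signalling genes (grey), with a bar at each list's median, dotted lines at the limit of 1 and 1 library per group. The median of the Dusp genes is 0.23 after glucose oxidase and 0.97 with Et2HOBA, and that of the MAP kinases 0.11 and 0.07.

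Genes with a pattern most like that of 2 members were found by the distance between their log2 ratios against control, over 3 libraries and 10588 protein-coding genes with a mean normalized count of 100 or more. For Dusp10, the member farthest from control with Et2HOBA, these were Ankrd1 (47, 164 and 397 reads, distance 0.07), Syt7 (106, 311 and 822 reads, 0.09) and Nxph3 (262, 820 and 2053 reads, 0.14). For Dusp6, the member with the lowest ratio in that comparison, they were Arhgef1 (6698, 6729 and 6077 reads), Fastkd3 (333, 336 and 302 reads) and Fbxw5 (3292, 3287 and 2985 reads), all within a distance of 0.01. With so many genes and only 2 ratios, close matches to a gene that lies near control are common.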

How the data were processed

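RNA was measured by stranded sequencing of polyadenylated RNA in 3 libraries, 1 per group. Reads were processed with STAR and featureCounts on mm10, per the submitters' processing notes; versions, annotation and strand setting are not given in the sources used here. The authors deposited raw counts of 18287 genes for control and for the library given both agents, with normalized values and log2 differences, per the file headers. For the glucose oxidase library the authors deposited only log2 differences, from control and, for 7 genes outside the family, from the other treated library. Of the gene IDs, 17878 matched GENCODE M21 (GRCm38) in version and position.

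Glucose oxidase reads were recovered by inverting the inverse hyperbolic sine form of the deposited log2 values: 100% of 18275 genes matched by symbol and 12 placed by whole reads came within 0.01 of a whole number, against 3.31% with control counts made 1 read too high. The inversion was tested on simulated data. Size factors were medians of ratios over all 3 libraries (1.03, 0.965 and 1.04), and log2 ratios used a pseudocount of 10 (Python 3.11.15, scipy 1.17.1; TMM factors from edgeR 4.0.16). Genes were counted at 1 log2 unit or more, with no p-value, as there are no replicates. The deposited log2 scale shrinks low counts differently in each table, so deposited values are not compared between tables. Exon lengths, overlaps and shared 50-base stretches came from GENCODE M21.

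The members, lists, limit and pseudocount were chosen with earlier results of these data known. Named genes were all 10 members, and from each list at most 4 genes past the limit in a comparison against control with a mean normalized count of 100 or more. Other list genes are marked as named after their values were seen. For likeness, the 3 nearest genes were named for the member farthest from control and the one most opposite. Endothelial markers were named as a check of the label. Alternatives were other pseudocounts (1 and 50), scalings (total count, TMM, protein-coding genes), limits (0.5 and 2), a filter at a mean normalized count of 10 and the deposited scale.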

Additional observations from a re-analysis of the deposited data

How the results depend on the processing

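Counts of members past the limit moved by more than 1.5 times only under another limit, pseudocount or scale. Here the shares of all genes count both directions together, unlike the separate upward and downward shares above. At the main setting they were 12.7%, 14.7% and 8.55% in the 3 comparisons, and every member counted was higher. For glucose oxidase against control the count of 4 was 0 at a limit of 2, which 2.88% of all genes passed, and 2 on the authors' deposited log2 scale (4.01%), where Dusp4 and Dusp5 passed. With both agents against control the count of 4 was 8 at a limit of 0.5 (40.1% of all genes). Between the treated libraries the count of 2 was 6 at a limit of 0.5 (25.5%), 0 at a limit of 2 (2.14%) and 1 with a pseudocount of 50 (3.20%). The other alternatives for the counts, among them each scaling of library size and the filter, stayed within 1.5 times. The share of all genes still differed among these. For glucose oxidase against control the count stayed at 4 at a limit of 0.5, beside 33.8% of all genes, and with a pseudocount of 1, beside 23.2%. With both agents against control it was 5 with a pseudocount of 1 (24.6%) and 3 at a limit of 2 (3.80%). Of 170 values of single members under the alternatives, 19 moved by more than the counting interval allows, 2 changed sign (both for Dusp8 after glucose oxidase) and 0 reversed a called value. Total-count scaling moved the median of all genes to -0.06, -0.13 and -0.08 in the 3 comparisons, and member values moved down with it. The deposited values between the treated libraries list no member, so that alternative was not run there. No paired analysis was possible because each group had 1 library. Depth limits Dusp2 and Dusp10 in control, at 25 and 36 reads.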
